A study of Mus musculus with 13 samples.

Results

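Late-annotated miRNAs are described here, meaning the mouse miRNAs whose number in the miRNA registry is 1800 or higher. All miRNAs of the array's value table with such a number were taken, in any letter or arm, except mmu-miR-3082-5p, mmu-miR-3096-5p and mmu-miR-5103, which left 266 of 1079 mouse miRNAs. The rule reads names only, but it was set with earlier results known, and the 3 miRNAs left out were all lower in curcumin tumors, by the log2 differences −1.89, −2.31 and −2.79. RNA came from flank tumors of male C57BL/6 mice, grown from injected B78H1 cells, an amelanotic mouse melanoma line that is a clone of B16 and lacks Tap-2 and MHC class I. The diet was standard chow in 6 control mice and the same chow with 4% curcumin, a plant polyphenol, in 7 mice. It began 14 days before the cells were injected and was kept until the tumors were taken after 28 days. Each tumor was hybridized to 1 array, on 2 slides with 3 curcumin and 2 control tumors on slide 1 and 4 of each on slide 2, and a tumor holds host cells besides the melanoma cells.

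A miRNA is a short RNA cut from a hairpin precursor. It guides silencing proteins to messenger RNAs, mainly through pairing of its seed, bases 2 to 8 from the 5′ end, and both arms of the hairpin (5p and 3p) can give a mature miRNA. Numbers were given out in the order of registration. The high numbers mostly come from deep sequencing, and as a class they include many rare miRNAs and some sequences that may be fragments of other RNAs. Most are poorly studied, so few roles are named below.

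The sequences of the members around which the results turn were taken from RefSeq (GRCm38.p6), which held 200 of the 266 by name. They are shown 5′ to 3′ with the seed in capitals. The first 3 are among the brightest members, and mmu-miR-3473b is a bright member whose signal was less steady between tumors than theirs. The next 4 fell in curcumin tumors, the following 2 rose, and the last was chosen for its seed alone.
mmu-miR-3963: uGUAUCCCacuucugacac
mmu-miR-3968: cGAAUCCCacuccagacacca
mmu-miR-5100: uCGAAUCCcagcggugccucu
mmu-miR-3473b: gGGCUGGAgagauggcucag
mmu-miR-2137: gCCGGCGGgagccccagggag
mmu-miR-2861: gGGGCCUGgcggcgggcgg
mmu-miR-5126: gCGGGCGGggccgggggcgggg
mmu-miR-3077-5p: cUGCGGACgggugggcgggcaggcc
mmu-miR-1839-5p: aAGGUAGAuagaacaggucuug
mmu-miR-3068-3p: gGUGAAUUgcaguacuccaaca
mmu-miR-1961: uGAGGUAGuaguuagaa

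On GRCm38.p6 mmu-miR-3963 is on the minus strand of chr3:151023839-151023857, where the annotation has no other gene over it. The 6 letters AUCCCA stand in mmu-miR-3963, mmu-miR-3968 and mmu-miR-5100, and in the sequence strand of 4 of the 840 mouse miRNAs with a sequence (0.476%), the fourth being mmu-miR-191-5p. mmu-miR-3968 is on the minus strand of chr11:115447969-115447989 within the span of Trim80, and mmu-miR-5100 on the plus strand of chr11:60728698-60728718 within that of Mief2, a gene of mitochondrial fission. The letters GGCGGG stand in 4 of the 840 (0.476%), namely mmu-miR-2137, mmu-miR-2861, mmu-miR-5126 and mmu-miR-3077-5p, of which 84.0% to 100% of the bases are G or C. All 4 were detected on all arrays and were called lower in curcumin tumors (adjusted p below 0.05, fit described below). Of the 243 miRNAs detected on all arrays, 21.4% were called lower. Among members so detected and with a sequence, 6 of the 7 called lower had 70% or more G or C, beside 5 of the 24 not called. Among these members the string and a high share of G or C can therefore not be told apart. Over all 243 miRNAs, 6 of the 40 called lower and with a sequence had 70% or more, all of them members. The 4 other miRNAs so detected with 70% or more were not called. Both strings were chosen after the values were seen and only the RNA's own strand was searched. The seed of mmu-miR-1961, GAGGUAG, is that of the let-7 family, whose 9 other members with a sequence were detected on all 13 arrays, whereas mmu-miR-1961 was detected on 0. mmu-miR-1928, with the seed of mmu-miR-221-3p (detected on 11 arrays) and mmu-miR-222-3p (on 8), was also detected on 0 arrays. Not every member with a shared seed went undetected. mmu-miR-1947-3p, with the seed of mmu-miR-674-5p, was detected on 12.

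Detection is the call of the scanner software for a miRNA on an array. Of the 266 late-annotated miRNAs, 47 (17.7%) were detected on all 13 arrays, 168 (63.2%) on no array and 51 on some. For the other 813 mouse miRNAs these shares were 24.1% on all and 52.4% on none. By number, of the 40 miRNAs numbered 5000 to 5999, 13 (32.5%) were detected on all arrays, beside 20 of the 137 numbered 3000 to 3999 (14.6%) 12 of the 83 numbered 1800 to 1999 (14.5%) and 2 of the 6 numbered 2000 to 2999 (33.3%). Whether these shares differ was not tested. An array detected between 53 and 75 late-annotated miRNAs in curcumin tumors (median 65) and between 59 and 90 in controls (median 70), so the groups overlapped. Of the 51 miRNAs detected on some arrays, 38 were detected on a larger share of control than of curcumin arrays and 13 the other way. Among all 1079 miRNAs these counts were 140 and 102. None of the 266 was detected on every array of a diet and on no array of the other.

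**Figure D1:**
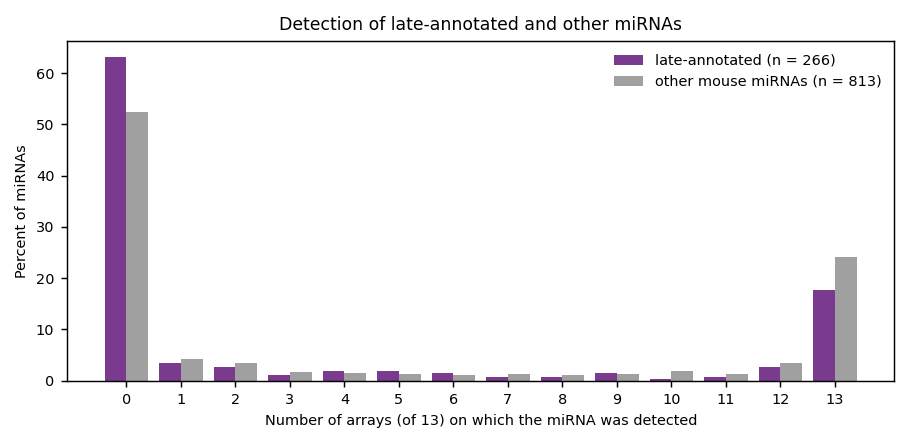
Percent of miRNAs (vertical axis) by the number of the 13 arrays on which they were detected (horizontal axis), for the 266 late-annotated miRNAs (purple) and the other 813 mouse miRNAs (grey). Both sets lie mostly at the ends, with 63.2% and 52.4% at 0 arrays and 17.7% and 24.1% at 13 arrays.

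The brightest miRNA on all 13 arrays was mmu-miR-3963, by the sum of its probe signals before any normalization. Brightness also depends on how well a probe binds, so it is not an amount of RNA and does not rank miRNAs by abundance. Its signal was between 44472 and 58704 in curcumin tumors (median 53319) and between 43213 and 55172 in controls (median 51098). These ranges nearly coincided. The difference was 0.06 on the log2 scale (curcumin minus control, 7 and 6 tumors; exact permutation test, two-sided, p = 0.485). On each array its signal was 2.26 to 6.45 times that of the next miRNA, and no spot was saturated.

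The signal of mmu-miR-3963 was also the steadiest among the 243 mouse miRNAs detected on all arrays. Its coefficient of variation over the 13 arrays was 9.80%, against a median of 46.5% for the 243. Its highest signal was 1.36 times its lowest, whereas the summed signal of all other mouse miRNAs spanned 3.28-fold. The other bright members with the AUCCCA string were also steady. By rank from the steadiest of the 243, mmu-miR-5100 was at 6 with a coefficient of variation of 20.6% and mmu-miR-3968 at 9 with 23.2%. In contrast, mmu-miR-3473b was at 150 with 57.1%. Steadiness was not particular to the string. The members mmu-miR-3058-3p at 3 and mmu-miR-3085-3p at 5 do not hold it. mmu-miR-720, bright but not a member, was at 8 with 23.1%.

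Of the array signal, mmu-miR-3963 accounted for 18.9% to 39.0% in curcumin tumors (median 26.7%) and 21.3% to 32.4% in the controls (median 28.9%). The mean difference of −1.27 percentage points did not pass the exact permutation test (two-sided, p = 0.686). All late-annotated miRNAs together held 33.4% to 63.8% of the signal in curcumin tumors (median 42.0%) and 50.6% to 58.9% in the controls (median 54.0%). The highest curcumin value came from curcumin tumor 5, and the other 6 curcumin tumors were between 33.4% and 48.5%, below all controls. Without mmu-miR-3963 the remaining 265 members held 14.5% to 24.8% of the signal in curcumin tumors (median 15.6%) and 22.9% to 29.3% in the controls (median 26.5%). Here too curcumin tumor 5 was the highest, and without it the curcumin tumors reached 18.7%. The array of this tumor had the lowest total signal (114095) and the lowest share of spots well above background (18.4%) of the curcumin arrays, and the part of this in its shares was not tested. No test is given for the shares of the list.

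**Figure D2:**
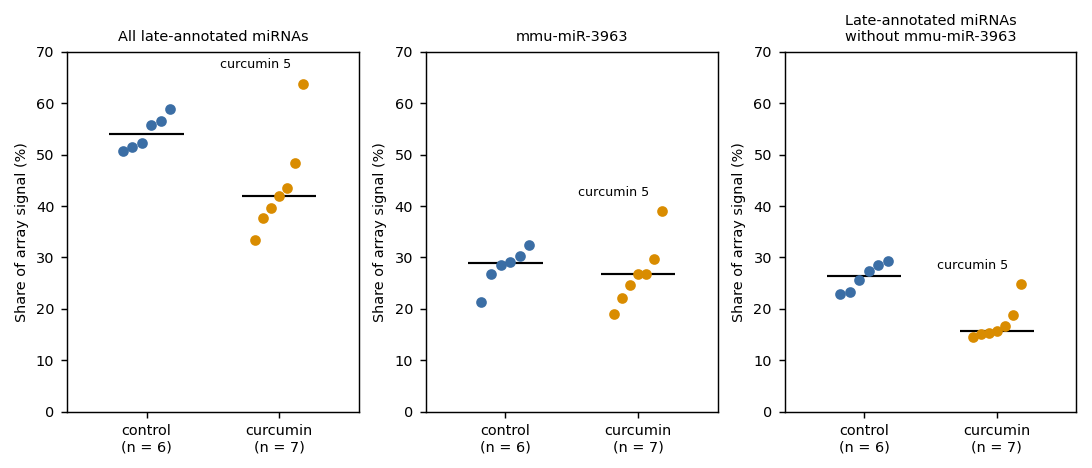
Share of the summed mouse miRNA signal in percent (vertical axes) held by all late-annotated miRNAs, by mmu-miR-3963 and by the others, with 1 point per tumor and a line at the median. Apart from curcumin tumor 5 the curcumin tumors lie below all controls in the left and right panels (up to 48.5% and 18.7%), whereas the diets overlap for mmu-miR-3963.

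For the diet comparison the signals were quantile normalized over the arrays and log2 transformed, and all 1079 miRNAs were fitted with limma, a linear model with a shared estimate of the spread. A miRNA was called at a Benjamini-Hochberg adjusted p below 0.05. Values at or below 0 were set to a floor of −7.03 on the log2 scale. In this fit 24 late-annotated miRNAs (9.02%) were called, 2 higher (0.752%) and 22 lower (8.27%) in curcumin tumors. Among all 1079 miRNAs, 15.8% were called, 8.34% higher and 7.51% lower. The members' share of lower calls was thus near the background, and few were called higher. When the 3 miRNAs left out by the rule were counted as well, 25 of 269 (9.29%) were lower. Without adjustment 41 members had p below 0.05, 5 higher (1.88%) and 36 lower (13.5%), beside 12.1% and 14.3% of all 1079. The count depended on the scaling. With the signals not normalized between arrays 0 members were higher and 6 lower, and with the normexp method applied to the median spot signals, a setting chosen after seeing the data, 6 were higher and 24 lower.

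Among miRNAs detected on all arrays the members leaned further to lower values. Of the 47 such members 1 was called higher (2.13%) and 13 lower (27.7%), beside 20.2% higher and 21.4% lower among all 243. The median log2 difference of the 47 was −0.37, with 36 below 0, 10 above and mmu-miR-3963 at 0. It was −0.09 over the 243 and −0.06 over the other 196. Without normalization between arrays these medians were −0.44, −0.26 and −0.13. In 6 of the 47 all curcumin tumors were on one side of all controls, 1 higher (2.13%) and 5 lower (10.6%), compared with 8.23% and 3.7% of the 243. All 24 called members had the same direction on both slides, but they were called on the arrays of both slides together. Of the 47 members detected on all arrays, called or not, 40 had the same direction on both slides.

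**Figure D3:**
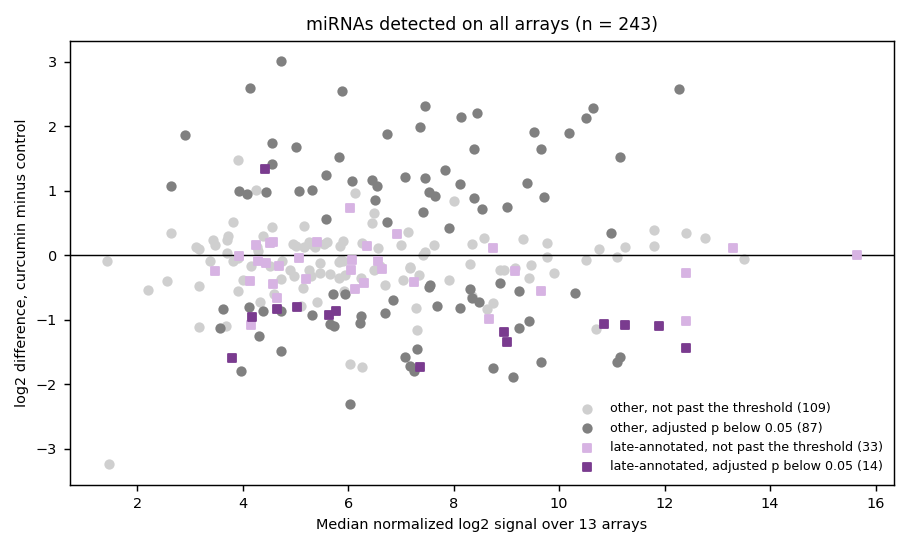
Difference between diets in log2 units (vertical axis, curcumin minus control) against the median normalized log2 signal (horizontal axis) of the 243 miRNAs detected on all arrays. The late-annotated miRNAs (squares, dark where the adjusted p is below 0.05) lie mostly below 0, with 13 called lower and 1 higher, whereas 48 of the other miRNAs (dots) were called higher and 39 lower.

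The quantile step gave mmu-miR-3963 the same value, 15.65, on all arrays, because it ranked first on each. Its normalized difference is therefore 0 by construction and was not tested, and a correlation of other miRNAs with it could not be computed. With the 75th percentile scalings and without normalization its log2 difference lay between 0.06 and 0.28. The lowest adjusted p of limma among these scalings was 0.745.

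Among the 10 brightest members, 4 were called lower in curcumin tumors, beside 13 of the 47 members (27.7%) and 21.4% of the 243 miRNAs detected on all arrays. mmu-miR-5109 had normalized log2 values from 11.09 to 12.77 in curcumin tumors (median 11.48) and from 12.40 to 13.76 in the controls (median 13.04). The ranges met through curcumin tumor 5, which held the highest curcumin value. The log2 difference of mmu-miR-5109 was −1.43 (SE 0.33, limma adjusted p = 0.0142). mmu-miR-5097 was at 10.19 to 11.80 in curcumin tumors (median 10.51) and at 11.24 to 12.03 in the controls (median 11.80), and fell by 1.08 (SE 0.25, limma adjusted p = 0.0142). Again curcumin tumor 5 was the highest of its group, and without it the difference was −1.27. Both were called whichever array was left out.

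mmu-miR-3960 and mmu-miR-5126 gave less stable calls. mmu-miR-3960, which has been linked to osteoblast differentiation, was at 9.47 to 11.48 in curcumin tumors (median 10.12) and at 10.86 to 11.90 in the controls (median 11.12). It fell by 1.07 (SE 0.30, limma adjusted p = 0.0349), and the ranges met only through curcumin tumor 5. mmu-miR-5126 lies on the plus strand of chr1:84695890-84695911 within the span of Dner, which codes for a membrane protein of neurons. It was at 10.64 to 12.40 in curcumin tumors (median 11.48) and at 11.90 to 13.51 in the controls (median 12.34), with a difference of −1.10 (SE 0.31, limma adjusted p = 0.0382). The call was lost without 1 array in 10 of 13 cases for mmu-miR-3960 and in 11 of 13 for mmu-miR-5126, with adjusted p up to 0.0709 and 0.0764. Without curcumin tumor 5 both were called, at 0.00117 and 0.0100. With the slide as a block mmu-miR-5126 missed the threshold (adjusted p = 0.0527).

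The falls with no overlap between the diets among the named members were those of mmu-miR-2137, mmu-miR-3096b-5p and mmu-miR-2861. mmu-miR-2137 is on the plus strand of chrX:72992113-72992133 within the span of Zfp185, a gene for a LIM domain protein. Its log2 values were 6.34 to 7.37 in curcumin tumors (median 6.86) and 7.75 to 10.12 in the controls (median 8.39), a difference of −1.73 (SE 0.34, limma adjusted p = 0.00702). Control tumor 5 stood above the other controls. It was also the highest control for mmu-miR-3960, mmu-miR-5126, mmu-miR-3096b-5p, mmu-miR-2861, mmu-miR-5105, mmu-miR-3067-3p and mmu-miR-3113-5p. For mmu-miR-5109 it shared the highest control value, and for mmu-miR-5097 it was the lowest control. Leaving out any single array kept the call of mmu-miR-2137, with differences from −1.89 to −1.41. Within slides 1 and 2 they were −1.20 and −1.99. mmu-miR-3096b-5p was a dim member, with 2.68 to 3.79 in curcumin tumors (median 3.30) and 4.24 to 5.72 in the controls (median 4.95). It fell by 1.60 (SE 0.26, limma adjusted p = 0.00348). The exact permutation test gave both miRNAs p = 0.000583, the smallest it can give with 7 and 6 tumors. Groups that do not overlap always give this p, so it adds nothing to the lack of overlap.

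mmu-miR-2861, another miRNA linked to osteoblast differentiation, is on the minus strand of chr2:32712819-32712837 with no other gene annotated over it. Its log2 values were 7.84 to 9.00 in curcumin tumors (median 8.14) and 9.15 to 10.64 in the controls (median 9.49). All curcumin tumors were below all controls, and the difference was −1.34 (SE 0.28, limma adjusted p = 0.00919). mmu-miR-5105 was at 7.79 to 9.61 in curcumin tumors (median 8.19) and at 8.95 to 10.51 in the controls (median 9.45). It fell by 1.19 (SE 0.33, limma adjusted p = 0.0318), and curcumin tumor 5 alone reached into the control range. The call of mmu-miR-5105 was lost without 1 array in 7 of 13 cases.

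The 2 remaining named falls were small and of dim miRNAs. Unlike the other named falls, neither miRNA was detected on all 13 arrays. Each was named because it was detected on every array of only 1 diet, and such a filter favors miRNAs that differ between diets. mmu-miR-3067-3p comes from a hairpin within the span of Smoc1, which codes for a secreted calcium-binding matrix protein. It had log2 values of 2.55 to 3.63 in curcumin tumors and 3.37 to 5.05 in controls, and mmu-miR-3113-5p had 2.65 to 3.95 and 3.83 to 5.01. The differences were −0.97 (SE 0.28, limma adjusted p = 0.0381) and −0.96 (SE 0.28, adjusted p = 0.0388), with overlapping groups. Each lost its call in 8 of 13 cases when 1 array was left out, and mmu-miR-3067-3p also with the slide as a block (adjusted p = 0.0528). mmu-miR-3077-5p, printed above for its GGCGGG string, is not among the 10 largest falls. Its values were 3.81 to 4.79 in curcumin tumors and 4.65 to 6.20 in controls, with a difference of −0.83 (SE 0.25, limma adjusted p = 0.0464).

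The 2 rises were those of mmu-miR-1839-5p and mmu-miR-3068-3p. mmu-miR-1839-5p is on the plus strand of chr7:81529919-81529940 within the span of the long non-coding RNA gene 2900076A07Rik. It was at 4.41 to 5.91 in curcumin tumors (median 5.34) and at 3.54 to 4.25 in the controls (median 3.94). The diets did not overlap, and it rose by 1.34 on the log2 scale (SE 0.23, limma adjusted p = 0.00399). The lowest curcumin value was that of curcumin tumor 5. The difference was 1.39 within slide 1 and 1.27 within slide 2. Without normalization between arrays the adjusted p was 0.179.

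mmu-miR-3068-3p is on the minus strand of chr12:87437685-87437706 within the span of Alkbh1, which codes for a nucleic acid demethylase. It was at 2.37 to 4.08 in curcumin tumors (median 3.22) and at 1.37 to 2.68 in the controls (median 2.06). The groups overlapped, and the difference was 1.17 (SE 0.29, limma adjusted p = 0.0238). It was detected on 12 of 13 arrays. Without 1 of the 13 arrays the adjusted p was 0.0534, and without normalization it was 0.426.

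**Figure D4:**
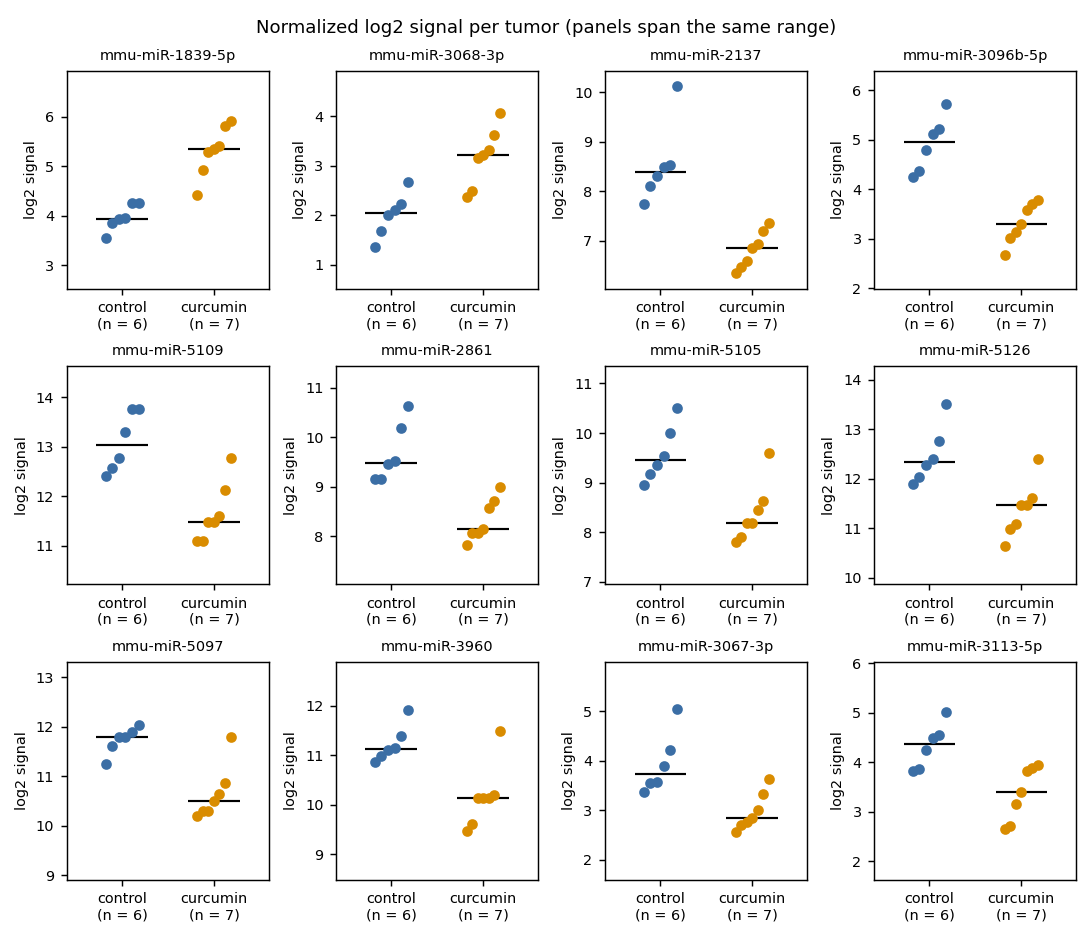
Normalized log2 signal (vertical axes, 4.4 units in each panel) of the 2 rises and the 10 falls, with 1 point per tumor and a line at the median of each diet. The diets are apart for mmu-miR-1839-5p, mmu-miR-2137, mmu-miR-3096b-5p and mmu-miR-2861 and overlap in the other panels.

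The other bright members were not called. mmu-miR-5100 ranked 3 to 6 on the arrays, so the quantile step left it few values to take. These were 13.30 to 13.51 in curcumin tumors and 12.57 to 13.51 in controls, a difference of 0.11 (SE 0.16, limma adjusted p = 1.00). mmu-miR-3968 differed by −0.28 (SE 0.15, limma adjusted p = 0.318). mmu-miR-3473b spread over 10.12 to 13.51 in curcumin tumors (median 12.03) and 12.03 to 13.30 in the controls (median 12.85). Its difference of −1.02 was as large as that of several called members, but with an SE of 0.55 it did not pass the test (limma adjusted p = 0.300). mmu-miR-3102-5p differed by −0.25 (SE 0.25, adjusted p = 0.792) and mmu-miR-3096b-3p by −0.55 (SE 0.26, adjusted p = 0.207). Without control tumor 5 the difference of mmu-miR-3096b-3p was −0.76 and was called (adjusted p = 0.0296).

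The arms of a hairpin were often unequally detected. Of 72 hairpins with 2 or more members, 17 had an arm detected on all arrays, and in 10 of these another arm was detected on none. Only the hairpins of mmu-miR-1839 and mmu-miR-3096b had all arms detected on all arrays. In these the arms differed in size of change. mmu-miR-1839-3p differed by 0.33 (SE 0.20, limma adjusted p = 0.404), beside 1.34 for the 5p arm, and mmu-miR-3096b-3p by −0.55, beside −1.60 for its 5p arm. Whether the arms differed from each other was not tested. mmu-miR-3102-3p.2-3p, a further product of the mmu-miR-3102 hairpin in Arhgef17, had a log2 difference of −0.40 (SE 0.08, limma adjusted p = 0.00543) but was detected on 2 of 7 curcumin and 4 of 6 control arrays. The second 5p product, mmu-miR-3102-5p.2-5p, differed by −0.04 and mmu-miR-3102-3p by −0.01, both with adjusted p = 1.00. The second arms mmu-miR-3067-5p (−4.80, SE 2.14, adjusted p = 0.176), mmu-miR-3068-5p (2.99, SE 1.43, adjusted p = 0.217) and mmu-miR-3113-3p (−0.23, SE 0.21, adjusted p = 0.687) had values at the floor in both diets, so the sizes of these differences depend on the floor.

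Of the 24 called members 7 were not detected on every array of either diet, and all 7 were lower in curcumin tumors. They include mmu-miR-3057-5p, mmu-miR-5120 and mmu-miR-5122, named here after their values were seen, which were detected on 0 of 7 curcumin arrays and on 1, 1 and 2 of 6 control arrays. No fold is given for these, since most of the values in both diets were not above background.

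Each member was measured by 2 to 4 different probes, 2 in 244 of the 266. Probes of a miRNA bind the same RNA and are not replicates of a diet, but they show whether a difference rests on a single probe. Fitted probe by probe, 45 of the 46 members detected on all arrays other than mmu-miR-3963 (97.8%) had the same sign of the diet difference in all probes, beside 172 of 196 other miRNAs (87.8%). Of the others 29 had 4 probes, compared with 0 of the 46 members. Among miRNAs with 2 probes the sign was the same in 42 of 43 members (97.7%) and in 151 of 164 others (92.1%). The exception, mmu-miR-3085-3p, differed by −0.02 and 0.03. The median gap between the lowest and the highest probe was 0.07 on the log2 scale. The largest gap, 5.38, was that of mmu-miR-5099, whose dimmer probe had a median signal of 0.204 beside 12.5 for the brighter. For mmu-miR-5109 the probes differed by −1.33 and −1.48, for mmu-miR-2861 by −1.26 and −1.35, and for mmu-miR-2137 by −1.19 and −1.77. The 3 probes of mmu-miR-1839-5p gave 1.34, 1.40 and 1.81. The sign of mmu-miR-5100 depended on the normalization. Its probes differed by −0.18 and −0.14 when quantile normalized as probes, whereas their sum, normalized per miRNA, differed by 0.11. Without normalization between arrays the probes differed by 0.16 and 0.18.

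**Figure D5:**
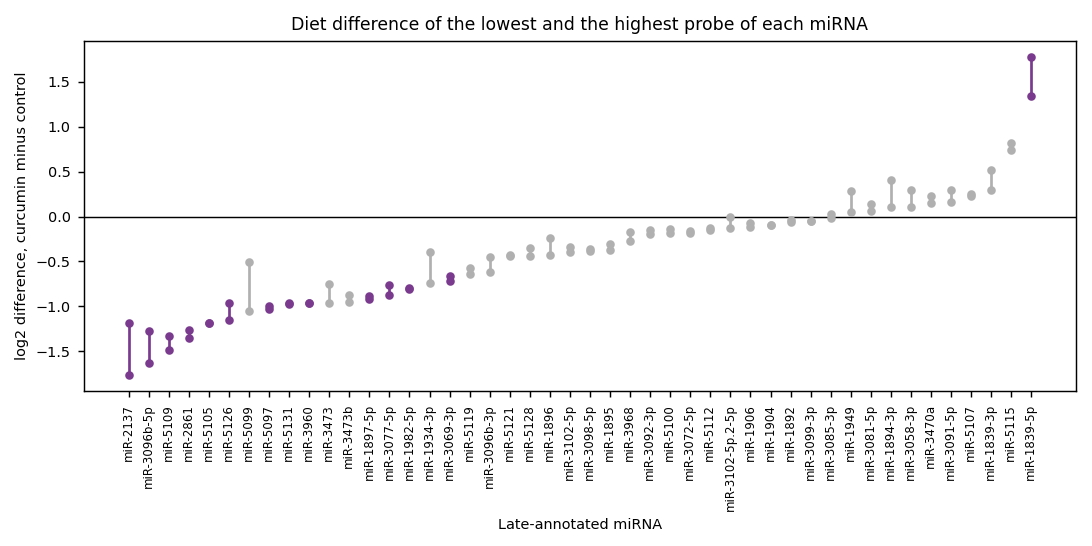
Lowest and highest difference between diets among the probes of a miRNA (vertical axis, log2 units, curcumin minus control), with values below 1 set to 1 before log2, for the 46 late-annotated miRNAs detected on all arrays other than mmu-miR-3963 (horizontal axis). Purple marks miRNAs with an adjusted p below 0.05, and the widest pair is 0.58 apart.

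Probe signals of a miRNA could still differ in brightness. The brighter probe exceeded the dimmer by a median of 1.56-fold over these 46 members, and 29 were within 2-fold. For mmu-miR-3963 the ratio of the probes was 1.94 to 2.30 on the 13 arrays. Its median was 2.06 in curcumin tumors and 2.23 in controls.

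Several facts of the whole series stood beside these differences. Within each slide, as read from the names of the scans, the controls occupied line 1 of the array positions and the curcumin tumors line 2. Position and diet can therefore not be told apart. Marker miRNAs of other cell types also moved with the diet. The summed signal of 4 hematopoietic miRNAs, all called higher, was 342 to 1347 in curcumin tumors and 84.4 to 286 in controls, and that of 3 fibroblast miRNAs, of which 2 were called higher, was 419 to 982 and 73.5 to 311. Of 7 epithelial miRNAs 1 was higher and 5, the miR-200 family, were detected on no array, with sums of 218 to 1739 and 3.32 to 165. Of 2 melanocytic miRNAs 1 was lower, with sums of 4.19 to 624 (curcumin tumor 5 the highest) and 308 to 847. Of 4 skeletal muscle miRNAs 1 was higher, and none of the 2 endothelial or 2 erythroid miRNAs was called. The part of these in the differences of the late-annotated miRNAs was not tested, and in whole tumors fewer cells of a type and less RNA per cell cannot be told apart.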

How the data were processed

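The authors hybridized Cy3-labeled RNA of 13 tumors to 1-color Agilent mouse miRNA arrays and deposited Feature Extraction (version 10.10.1.1) intensity values, background subtracted and not normalized between arrays. A table of log2 values, also deposited, is described as quantile normalized. Groups and replicate numbers are those of the sample labels. Slides and lines were read from the names of the scans, not from the sample labels. No pair of arrays held identical values.

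Here probe totals were added up for each miRNA, quantile normalized over the 13 arrays, floored at the smallest positive value (0.00765, applied to the 51.4% of values at or below 0) and log2 transformed. The diet effect was fitted for 1079 miRNAs in R 4.3.3 by limma 3.58.1 (functions lmFit and eBayes), two-sided and without covariates. Single values were also compared by exact permutation over 1716 splits (smallest p = 0.000583). The limma step was tested on simulated data. Detection is the software's call, and shares are percents of the unnormalized signal.

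Named are the 10 brightest members detected on all arrays, the largest rises and falls (up to 10 each) among called members detected on every array of a diet, other arms of their hairpins, and mmu-miR-3963. The rule also asked for the miRNAs most like mmu-miR-3963, which could not be computed. The members and lists were chosen with earlier results of these data known. Sequences were matched by name to RefSeq (GRCm38.p6). Coordinates of the array design, on mm9, were not used. A check of base composition covered only the 32 of the 47 members detected on all arrays (68.1%) that had a sequence. In these, the share of G or C and the log2 difference had a Pearson correlation of −0.60 (Spearman −0.36). In the 157 other miRNAs detected on all arrays with a sequence, these were −0.26 and −0.28. Members without a sequence may differ, and the part of base composition in the diet differences was not tested. The number of arrays limits the precision, and signals near background limit the differences of dim miRNAs. Alternatives were other scalings, floors, filters, background correction, the methods' t-test, slide and replicate blocks, each slide alone and each array left out.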

Additional observations from a re-analysis of the deposited data

Results flagged for a closer look

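In 9 of 56 groups of tumors tested, the highest or lowest tumor lay far from the others of its diet by Dixon's ratio. Of the 9, 4 concerned curcumin tumor 5. Chance gives about 1 in 20 for independent values without ties. Here the groups shared the same tumors, and some values were tied by the quantile step or at the floor. The 9 can therefore not be set against that rate. Curcumin tumor 5 had the highest log2 values of its diet for mmu-miR-5097 (11.80, next 10.86), mmu-miR-3960 (11.48, next 10.19) and mmu-miR-3096b-3p (10.44, next 9.66), and the highest share of signal of the members without mmu-miR-3963 (24.8%, next 18.7%). Control tumor 5 had the lowest control value of mmu-miR-3096b-3p (9.12, next 10.12) and the highest of mmu-miR-2137 (10.12, next 8.53). Curcumin tumor 3 had the highest curcumin value of mmu-miR-5100 (13.51), with all other curcumin tumors at 13.30. mmu-miR-3068-5p was at the floor in curcumin tumor 7 (−7.03, next −2.45). mmu-miR-3113-3p was above the floor in 1 control, tumor 2 (−5.63, the others at −7.03). What set these tumors apart was not tested.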

How the results depend on the processing

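The 2 members higher and 22 lower in curcumin tumors became 5 and 29 with the deposited log2 values, 1 and 13 when scaled to the 75th percentile of miRNAs detected on all arrays, 1 and 10 when scaled to that of all mouse miRNAs, and 0 and 6 without normalization. On slide 1 alone there were 0 and 4, and on slide 2 alone 0 and 1, with fewer tumors. With normexp of the median spot signal, added after seeing the data, there were 6 and 24, and without normalization after it 0 and 19, of which 7 were among the 22. Normexp of the mean spot signal was not run. With 1 array left out the counts were 2 to 3 higher and 11 to 22 lower. The lower count moved most without curcumin tumors 1 (11), 2 (13) and 6 (12) and control tumors 2 (12) and 3 (13). The replicate numbers did not pair the tumors (correlations of 6 pairs −0.30 to 0.20, and in 0 of the 6 was the same number the best partner), and with them as a replicate block 2 were higher and 13 lower. Leaving out 1 array moved the difference in share of mmu-miR-3963 between −3.29 and 0.04 percentage points, that of all members between −13.5 and −8.41, and the members detected on all remaining arrays between 47 and 51. Of the named members 13 were called. Of these, 12 kept their direction under 28 alternatives, and mmu-miR-3102-3p.2-3p under the 27 in which it was tested. None kept the call under all (10 to 26 of those run). What made calls come and go between the scalings was not tested. The signs of probes were the same in 43 of 47 members without normalization.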
